A study of Mus musculus with 8 samples.

Results

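The genes described here control entry into and passage through the cell division cycle: the cyclins and the cyclin-dependent kinases (CDKs) they activate, the CDK inhibitors, the retinoblastoma (RB) family and the E2F transcription factors, with their closest partners. The rule for the list is by gene name and uses no measured value, but the list was drawn up with earlier results of these data known. Of 46 listed genes, 42 had a row of the deposited table that names 1 gene only; where a gene had several such rows, the brightest over all 8 arrays was used. The table holds 22180 genes with such a row. Of the 42 genes, 41 passed a filter on dim genes (a mean of at least 5.24 over all 8 arrays, on the log2 scale), as did 12019 genes in all. Ccnd1 was below it. Ccne2, Pkmyt1 and Ccnf lie on rows shared with another gene, and Ccnb1 had no named row; these 4 are not analysed here.

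The samples were PD-1hi effector CD8 T cells, sorted from the spleens of female C57BL/6 mice (the strain field of the labels reads C56BL/6). All mice carried leukaemia cells transplanted from Eµ-TCL1 mice, a model of chronic lymphocytic leukaemia in which a TCL1 transgene under an immunoglobulin enhancer drives a B cell leukaemia. Both groups therefore had the leukaemia, and no healthy or untreated group is analysed here. From 3 weeks after transplantation, for 2 weeks, 4 samples' mice received an antibody that blocks the interleukin 10 receptor (anti-IL-10R) and the mice of the other 4 an isotype control antibody; spleens were taken at 5 weeks. The sort took lineage-negative cells that carried TCRb and CD8, had little CD127, intermediate to high CD44 and high PD-1. Whether an array stands for 1 mouse or for pooled mice is not said in the labels, and each p-value is about array-to-array spread, which may be technical.

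As background, D-type cyclins with CDK4 and CDK6 start the phosphorylation of the pocket proteins RB1, p107 (Rbl1) and p130 (Rbl2) in G1 phase, and cyclin E with CDK2 completes it. The released E2F factors then switch on genes of DNA synthesis, among them Ccne1, Cdk2, Cdc25a and the E2F genes themselves. Later in the cycle the MuvB complex with MYBL2 and then FOXM1 switches on the genes of mitosis, among them Ccnb2 and Cdk1. In quiescent cells p130 and E2F4 or E2F5 sit with MuvB on many of the same promoters as the DREAM complex and hold them off. CD8 T cells divide rapidly after antigen contact, and exhausted subsets with high PD-1 include dividing cells.

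In bulk arrays of this kind, fewer dividing cells and less transcript per dividing cell cannot be told apart. Over the tested genes, isotype replicate 1 stood apart, with Pearson's r of 0.915 to 0.929 to the other arrays across genes, which are not independent replicates, against 0.962 to 0.986 among the other 7. Over the 41 tested members its r was 0.873 to 0.917, against 0.944 to 0.989. Counts are given with and without it. The CD8 T cell markers were bright in both groups: their mean log2 signal over 9 genes spanned 10.61 to 10.88 without and 10.94 to 11.00 with the blocking antibody. After blockade 8 of the 9 had a higher mean, and none passed the threshold. The groups were separated with higher values for 5 of them and with lower values for 1 (Cd2). Of all tested genes, 9.32% and 5.99% were separated in these directions. Of 11 B cell and leukaemia markers with a row, 4 passed the filter on dim genes, all 11 had a lower mean after blockade, and the groups did not overlap for 1. Their mean signal spanned 4.94 to 5.55 without and 4.90 to 5.14 with the blocking antibody. With that mean as a covariate no member passed, and 3 of all 12019 genes did. The differences were about as large in that fit: the median of the drivers was −0.52 (−0.55 without the covariate), and the 8 members that fell with all arrays differed by −0.81 to −0.54 (−0.87 to −0.53 without it). The part of these cells in the differences was not tested further. The means of the other marker lists were at most 6.29 in any array (myeloid, dendritic, NK, CD4 and regulatory T, gamma delta T, erythroid and platelet). Single markers stood higher than these means. Foxp3, the factor of regulatory T cells, was at 7.97 in isotype replicate 1 and at 5.08 to 5.95 in the other 7 arrays, a difference between the groups of −0.92 ± 0.48 (SE, limma adjusted p = 0.324). Isotype replicate 1 was also the highest array for the B cell marker Cd79a (6.80 against 5.07 to 5.91) and the myeloid marker Lyz2 (6.66 against 4.96 to 5.67). Yet it was the lowest array for the B cell marker Cd79b (5.61) and the myeloid marker Cd68 (8.41). The mean of the B cell list was highest in isotype replicate 3 (5.55, against 5.21 in replicate 1), and that of the myeloid list in isotype replicate 1 (5.67). The part of such cells in what sets this array apart was not tested.

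The promoters of these genes are shown first, because cell cycle genes are known for short motifs shared by their promoters. RefSeq windows of GRCm38.p6 (250 bases before to 50 after each start) were matched for 34 of the 46 listed members. They were searched on both strands for an E2F motif (TTTCCCGC, TTTGGCGC, TTTGCCGC or TTTCGCGC), for the cell cycle homology region that MuvB binds (CHR, TTTGAA or TTCGAA) and for CCAAT, the motif of NF-Y; the 3 motifs share no letters in full, TTCGAA reads the same on both strands and counts once, and a gene with several windows counted once. The E2F motif was found in 9 of the 34 members (26.5%), against 2.6% of all 27025 genes with a window. A CHR motif was found in 14 (41.2%, against 21.7%), at least 1 CCAAT motif in 22 (64.7%, against 41.1%), and 2 or more in 13 (38.2%, against 13.3%). Among the 18 drivers with a window, 13 (72.2%) had at least 1 CCAAT motif and 9 (50%) had 2 or more. Among the 8 inhibitors and pocket proteins 4 (50%) had at least 1 and 1 (12.5%) had 2 or more. The E2F motif was found in 5 of the 18 and 2 of the 8, and a CHR motif in 8 of the 18 and 2 of the 8. In the 8 genes of neither class the E2F, CHR and CCAAT motifs were found in 2, 4 and 5. In the 7 members with a window that were lower past the threshold given below, they were found in 2 (28.6%), 3 (42.9%) and 5 (71.4%). These shares are near those of all 34 members, so the motifs do not set the lower members apart from the list. The 7 stretches below are the 150 bases just before the start, 5′ to 3′ on the strand of the gene, with every match of the 3 motifs in capitals, also where it reads on the other strand. The first 5 belong to genes that were lower after blockade, Rbl1 is a pocket protein with an E2F motif, and Cdk6 is a driver that was higher.
Cdk1 (chr10:69352913-69353062, minus strand, fell): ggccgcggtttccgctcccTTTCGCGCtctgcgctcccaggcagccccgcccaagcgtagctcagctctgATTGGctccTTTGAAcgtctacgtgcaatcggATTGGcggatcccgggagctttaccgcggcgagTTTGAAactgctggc
Ccnb2 (chr9:70421555-70421704, minus strand, lower, did not pass): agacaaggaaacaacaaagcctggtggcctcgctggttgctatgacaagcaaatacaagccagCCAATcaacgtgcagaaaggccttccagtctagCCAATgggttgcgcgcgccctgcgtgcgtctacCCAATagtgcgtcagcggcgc
Fbxo5 (chr10:5805466-5805615, minus strand, fell): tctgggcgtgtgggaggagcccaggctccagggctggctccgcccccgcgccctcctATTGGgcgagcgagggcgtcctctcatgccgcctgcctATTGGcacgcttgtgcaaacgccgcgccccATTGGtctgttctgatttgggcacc
E2f8 (chr7:48881597-48881746, minus strand, fell): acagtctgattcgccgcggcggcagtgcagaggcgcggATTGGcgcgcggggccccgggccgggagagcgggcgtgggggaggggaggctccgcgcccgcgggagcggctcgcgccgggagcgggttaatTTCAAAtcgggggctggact
Cdk2 (chr10:128705052-128705201, minus strand, fell): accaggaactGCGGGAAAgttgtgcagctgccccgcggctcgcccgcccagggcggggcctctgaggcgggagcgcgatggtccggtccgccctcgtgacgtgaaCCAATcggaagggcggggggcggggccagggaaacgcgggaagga
Rbl1 (chr2:157204535-157204684, minus strand, pocket protein): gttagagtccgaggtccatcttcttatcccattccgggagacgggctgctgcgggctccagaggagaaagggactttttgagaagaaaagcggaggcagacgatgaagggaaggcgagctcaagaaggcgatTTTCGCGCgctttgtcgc
Cdk6 (chr5:3343743-3343892, plus strand, higher, did not pass): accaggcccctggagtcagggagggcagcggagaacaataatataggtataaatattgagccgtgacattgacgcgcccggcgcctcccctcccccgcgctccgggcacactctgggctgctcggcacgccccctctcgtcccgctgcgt

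In Cdk1 the E2F motif begins 131 bases before the start, and CHR motifs begin 71 and 15 bases before it, with CCAAT motifs on the other strand at 80 and 48. Ccnb2 has CCAAT motifs that begin 87, 54 and 21 bases before the start, and Fbxo5 has 3 on the other strand, at 93, 55 and 25. E2f8 has 1 CHR motif on the other strand, 20 bases before the start. Ccne1 and Mybl2, which fell, had none of the 3 motifs in their windows, as had Cdk4, E2f1 and Cdk6. The matches are letters in a window, and binding was not measured here.

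After IL-10R blockade, 8 members of this group fell and none rose among the 41 tested (limma, Benjamini-Hochberg adjusted p below 0.05 over 12019 genes). They were cyclins E1 and A2 (Ccne1, Ccna2), the kinases Cdk1 and Cdk2, the CDK subunit Cks2, the transcription factors Mybl2 and E2f8, and Fbxo5, which restrains the anaphase-promoting complex. Of all tested genes 1.3% were called lower and 1.23% higher. No CDK inhibitor and no pocket protein passed. Over the 22 drivers with a row the median difference was −0.55 on the log2 scale, against −0.06 over the 9 inhibitors and pocket proteins and 0.03 over all tested genes. The drivers were set by role: cyclins D, E, A and B, CDKs 1, 2, 4 and 6, the CKS subunits, E2F1 to E2F3, MYBL2, FOXM1, the CDC25 phosphatases, SKP2 and EMI1 (Fbxo5).

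The count depends on which arrays enter the fit. Without isotype replicate 1, 20 members fell and 0 rose, where 5.9% and 3.35% of all tested genes did. Without isotype replicate 2 the count was 1, without isotype replicate 3 or 4 it was 0, without anti-IL-10R replicate 1 it was 2, and without anti-IL-10R replicate 2, 3 or 4 it was 0. In those fits the share of all tested genes called lower was 0.00832% to 0.316%. The differences themselves moved less: over these 8 fits the median of the drivers lay between −0.64 and −0.49. Over all 17 alternatives run for single genes, Fbxo5 passed in 10, E2f8 in 9, Ccne1 in 8, Mybl2 in 7, Ccna2, Cdk1 and Cdk2 in 6 each and Cks2 in 5. By plain separation of the groups, 19 of the 41 tested members had their 4 anti-IL-10R values below the lowest isotype value, and 2 (Ccnd2 and Rbl2) had them above the highest. Of all tested genes, 5.99% and 9.32% were separated in these directions.

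**Figure D1:**
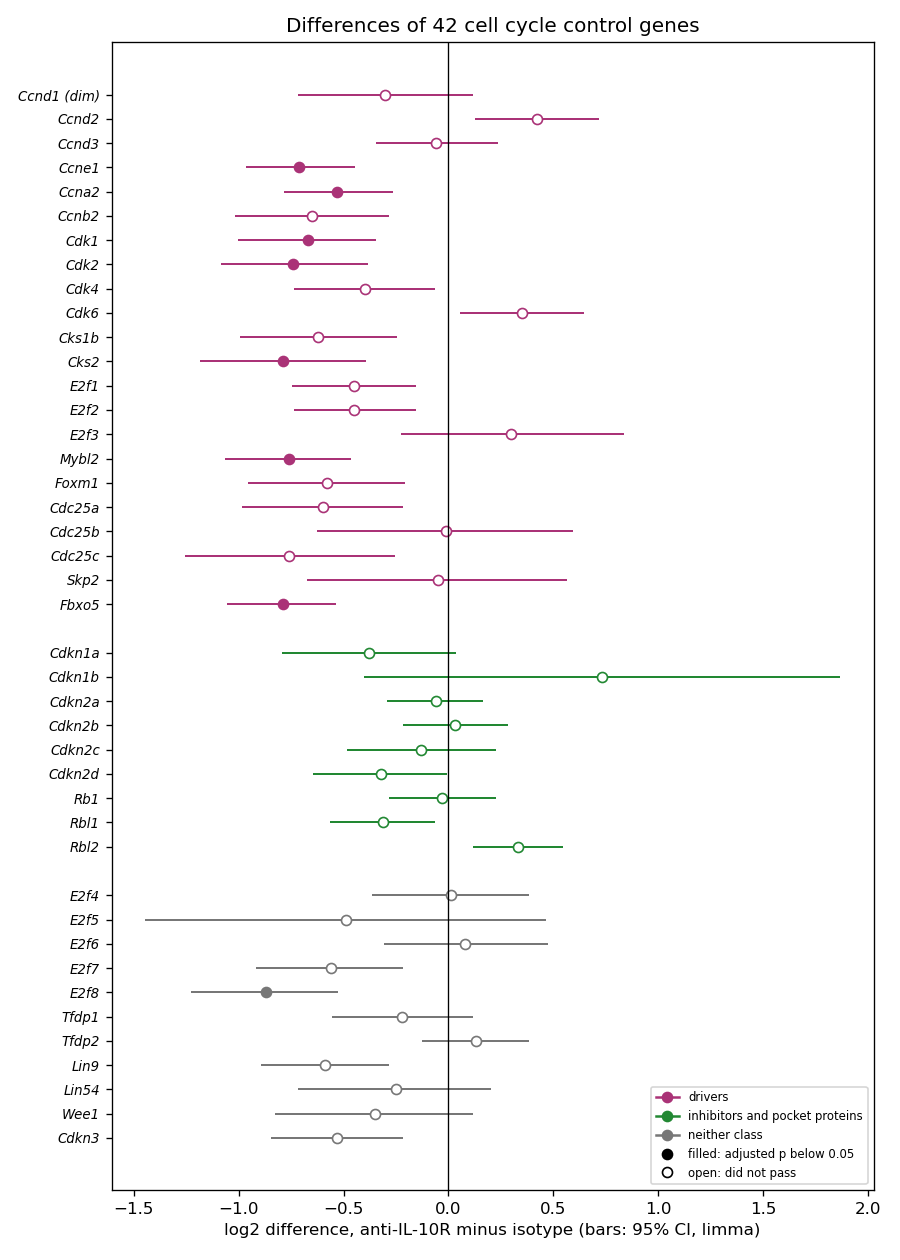
Log2 difference (anti-IL-10R minus isotype, horizontal axis) of the 42 members with 95% confidence intervals from limma, grouped into drivers, inhibitors and pocket proteins, and genes of neither class. The 8 filled points, which passed the threshold, all lie left of 0, between −0.87 and −0.53, and no inhibitor or pocket protein is filled.

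Among the cyclins of G1 phase, cyclin E1 fell while the D-type cyclins did not pass. Ccne1, which activates CDK2 at S phase entry, had log2 signals of 8.32, 8.49, 8.61 and 8.40 in isotype replicates 1 to 4 and of 7.79, 7.67, 7.91 and 7.64 in anti-IL-10R replicates 1 to 4. Every anti-IL-10R array was below every isotype array, and the spread within a group was small. The difference was −0.71 ± 0.11 (SE, n = 4 against 4), a 1.63-fold lower signal (limma adjusted p = 0.0227). Ccnd2, a D-type cyclin induced by growth factor signals, had 10.84, 11.15, 11.14 and 11.27 in the isotype arrays and 11.56, 11.65, 11.55 and 11.30 after blockade. The groups were separated, narrowly at anti-IL-10R replicate 4, and the difference of 0.42 ± 0.13 did not pass (adjusted p = 0.118). Ccnd3, the D-type cyclin best known from lymphocytes, differed by −0.06 ± 0.13, with overlapping groups (0.0045 without anti-IL-10R replicate 4). Ccnd1 was dim in all arrays (4.66 to 5.76, the highest in isotype replicate 1) and differed by −0.30 ± 0.18, or by −0.12 without that array.

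Of the cyclins of S phase and mitosis, cyclin A2 fell and cyclin B2 did not pass with all arrays. Ccna2, the partner of CDK2 and CDK1 from S phase on, had 9.60, 9.87, 9.87 and 9.91 in the isotype arrays against 9.36, 9.17, 9.40 and 9.20 in the anti-IL-10R arrays. The groups were separated, with isotype replicate 1 the nearest, and the difference was −0.53 ± 0.11 (SE, limma adjusted p = 0.0488). Ccnb2, a mitotic cyclin, had 9.67, 10.37, 10.28 and 10.29 against 9.59, 9.47, 9.56 and 9.41. Isotype replicate 1 lay close to the anti-IL-10R arrays and far from the 3 other isotype arrays. The difference was −0.65 ± 0.16 with all arrays (adjusted p = 0.0666) and −0.81 ± 0.09 without that array (adjusted p = 0.00482; 0.00265 to 0.211 over the 17 alternatives).

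Of the kinases, Cdk1 and Cdk2 fell, and Cdk4 and Cdk6 did not pass. Cdk1, the kinase of mitotic entry, had 10.23, 10.72, 10.67 and 10.73 in the isotype arrays and 10.11, 10.00, 9.76 and 9.80 after blockade. Only isotype replicate 1 came near the anti-IL-10R values. The difference was −0.67 ± 0.15 (SE, limma adjusted p = 0.0488), or 1.59-fold. Cdk2, the kinase of S phase, had 8.69, 8.68, 8.81 and 8.70 against 8.29, 7.99, 8.12 and 7.55. Here the isotype arrays lay within 0.13 of one another and the anti-IL-10R arrays were spread, with replicate 4 lowest. Cdk2 fell by 0.74 ± 0.15 (adjusted p = 0.0438). Cdk4 and Cdk6, the kinases that pair with D-type cyclins, differed in opposite directions, by −0.40 ± 0.15 and 0.35 ± 0.13, and neither passed (adjusted p = 0.168 and 0.174). Cdk4 had 9.53, 10.03, 10.04 and 10.16 against 9.56, 9.65, 9.47 and 9.48, so that isotype replicate 1 lay among the anti-IL-10R arrays. Without that array Cdk4 fell by 0.54 ± 0.09 (adjusted p = 0.012; 0.00858 to 0.416 over the alternatives). Cdk6 had 10.44, 10.46, 10.81 and 10.73 against 11.07, 10.78, 11.11 and 10.89, which overlapped at anti-IL-10R replicate 2.

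The CKS subunits bind CDKs and help them to dock on substrates. Cks2 had 8.33, 8.95, 8.97 and 9.12 in the isotype arrays against 8.18, 7.84, 8.05 and 8.14 after blockade. The groups were separated, with isotype replicate 1 again the lowest of its group. Cks2 fell by 0.79 ± 0.17 (SE, limma adjusted p = 0.0498). Cks2 has 3 further rows with the same mean of 7.58, and each of these differed by −0.57 ± 0.50 in a fit over all rows. Cks1b, which SKP2 needs to recognise p27, differed by −0.62 ± 0.16 with separated groups (7.94 to 8.73 against 7.59 to 7.85, adjusted p = 0.0778).

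**Figure D2:**
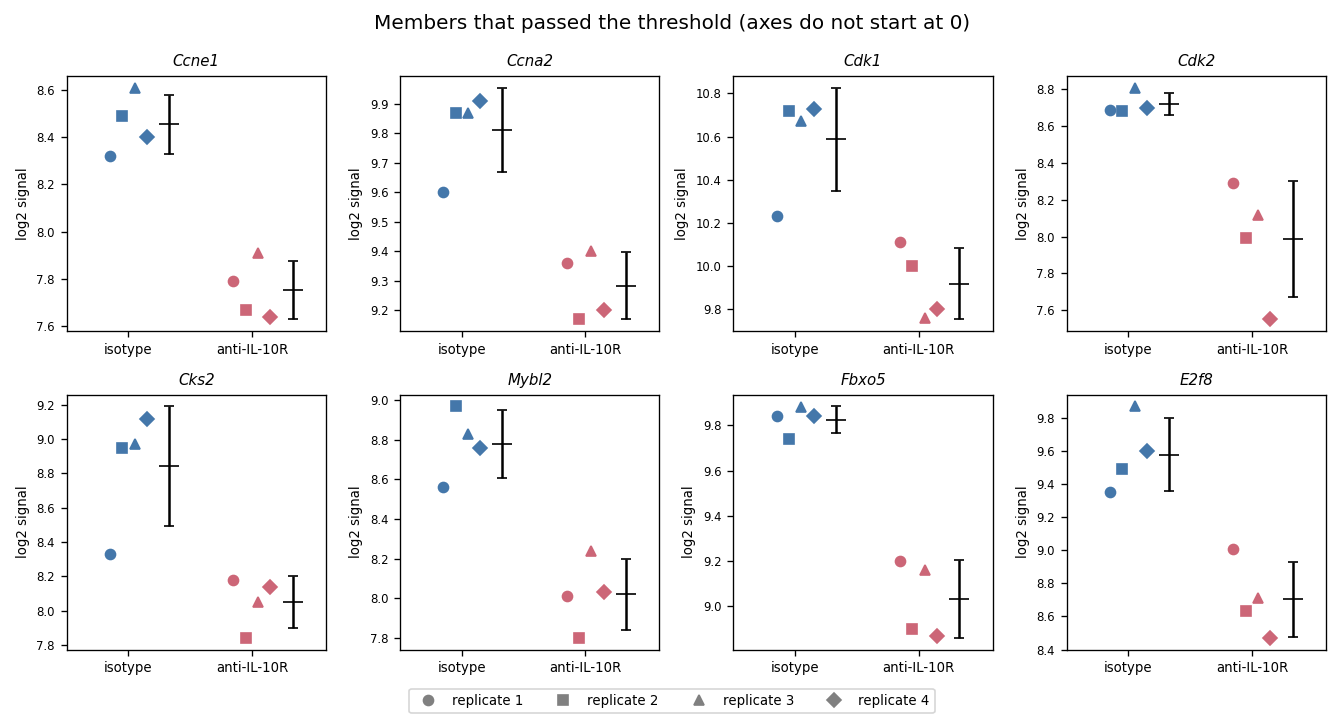
Log2 signal of the 8 members that passed the threshold, 1 point per array, with the replicate number as the marker and black bars for the group mean ± SD (n = 4). In all 8 panels every anti-IL-10R point lies below every isotype point; isotype replicate 1 (circle) is the lowest of its group in Ccne1, Ccna2, Cdk1, Cks2, Mybl2 and E2f8.

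Of MYBL2, FOXM1 and the MuvB subunits, Mybl2 fell. Mybl2, the activator in the MuvB complex, had 8.56, 8.97, 8.83 and 8.76 in the isotype arrays and 8.01, 7.80, 8.24 and 8.03 after blockade. The groups were separated by 0.32, with anti-IL-10R replicate 3 the highest of its group. Mybl2 fell by 0.76 ± 0.13 (SE, limma adjusted p = 0.0291). A second, dimmer row of Mybl2, with a mean of 5.65, differed by −0.19 ± 0.30. Foxm1, which takes over before mitosis, differed by −0.58 ± 0.16 (7.74 to 8.28 against 7.23 to 7.71, adjusted p = 0.0922). The MuvB subunit Lin9 had 7.88, 8.07, 7.67 and 8.15 against 7.37, 7.36, 7.51 and 7.18. The groups were separated, and the difference of −0.59 ± 0.13 missed the threshold (adjusted p = 0.0538). Lin54, the subunit that binds the CHR, differed by −0.25 ± 0.20 with overlapping groups, by −0.47 ± 0.11 without isotype replicate 1, and by −0.15 without isotype replicate 3.

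Of the 8 E2F genes, E2f8 alone fell with all arrays. The atypical factor E2f8, which represses E2F targets late in S phase and is itself an E2F target, had 9.35, 9.49, 9.87 and 9.60 in the isotype arrays and 9.01, 8.63, 8.71 and 8.47 after blockade. It had the largest difference of the called members, a fall of 0.87 ± 0.15 (SE, 1.83-fold, limma adjusted p = 0.0294). E2f7, its partner, differed by −0.56 ± 0.15 with separated groups (7.82 to 8.51 against 7.46 to 7.73, adjusted p = 0.0826). Of the activators, E2f2 had 7.25, 7.25, 7.29 and 7.61 against 6.98, 6.85, 7.08 and 6.71, and E2f1 spanned 6.63 to 6.96 against 6.13 to 6.58. Both differed by −0.45 ± 0.13 with separated groups and did not pass (adjusted p = 0.094 and 0.096); without isotype replicate 1 both did. E2f3 overlapped and differed by 0.30 ± 0.23, an amount set by isotype replicate 1 at 6.33, since without it the difference was 0.05.

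The repressor E2Fs overlapped between the groups. E2f4, the main E2F of quiescent cells, was at 10.08 ± 0.34 (SD, n = 4) and 10.08 ± 0.07. Its difference of 0.01 ± 0.16 (SE) turned to −0.16 without isotype replicate 1 and was also below 0 after quantile normalization (−0.059) and after centring (−0.037). E2f5 had 8.55, 6.96, 6.17 and 6.70 against 6.32, 6.66, 6.84 and 6.61. Isotype replicate 1 lay far above every other array, and the difference of −0.49 ± 0.42 was −0.002 without it and −0.80 without isotype replicate 3. E2f6 differed by 0.08 ± 0.17, or by −0.036 without isotype replicate 1. Of the DP proteins, with which E2Fs bind DNA, Tfdp1 had 10.67, 11.26, 11.15 and 11.31 against 10.88, 10.81, 10.93 and 10.88. It differed by −0.22 ± 0.15, and without isotype replicate 1, which lay below the anti-IL-10R arrays, it fell by 0.36 ± 0.09 (limma adjusted p = 0.0379; 0.0368 to 0.64 over the alternatives). Tfdp2 differed by 0.13 ± 0.11, or by 0.069 without anti-IL-10R replicate 1.

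**Figure D3:**
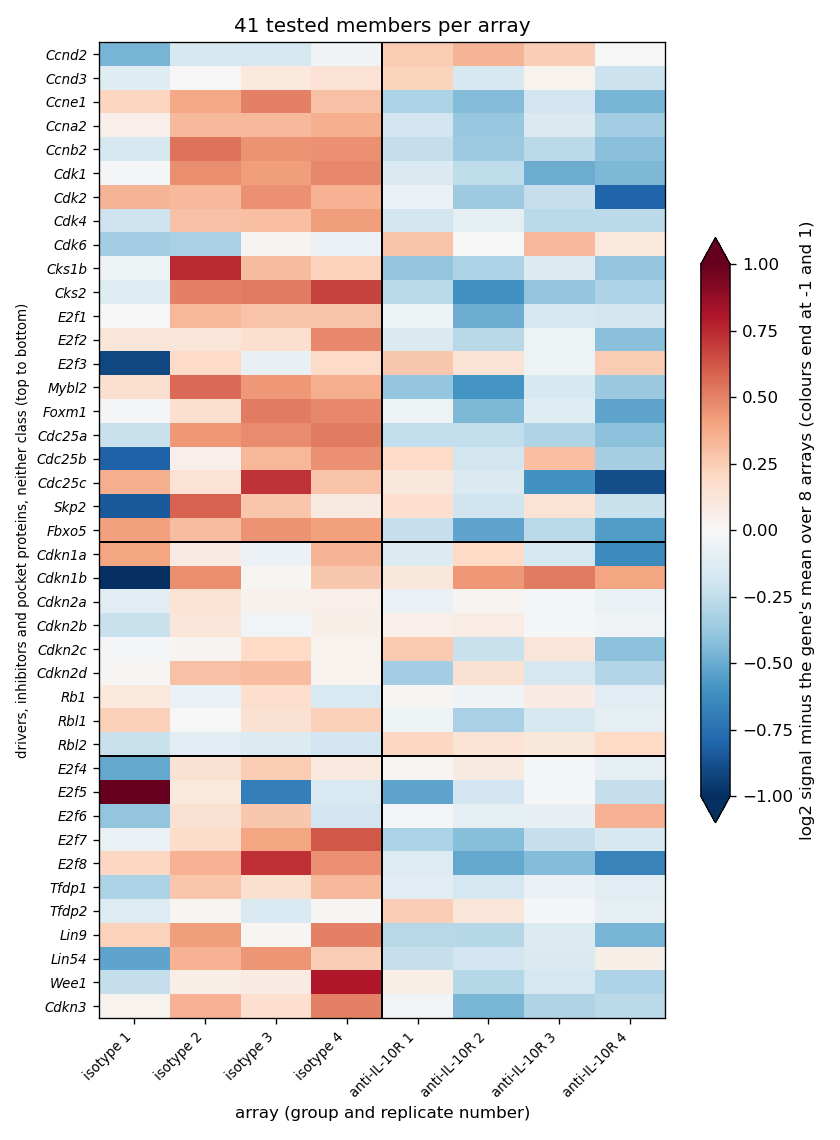
Log2 signal of the 41 tested members in each array minus the gene's mean over the 8 arrays; red is above and blue below that mean, and colours end at −1 and 1, which Cdkn1b and E2f5 exceed in isotype replicate 1. Isotype replicates 2 to 4 are red and the anti-IL-10R arrays blue for most drivers, isotype replicate 1 differs from its group in several genes, and Rbl2 shows the opposite colours in every array, as does Ccnd2 except in anti-IL-10R replicate 4, which lies close to the gene's mean.

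Of the regulators of CDK phosphorylation and of protein destruction, Fbxo5 fell. Fbxo5, which encodes EMI1 and lets cyclin A accumulate by restraining the anaphase-promoting complex, had 9.84, 9.74, 9.88 and 9.84 in the isotype arrays and 9.20, 8.90, 9.16 and 8.87 after blockade. Isotype replicate 1 lay with its group here, and the gap between the groups was wide beside the spread within them. Fbxo5 fell by 0.79 ± 0.11 (SE, 1.73-fold) and had the smallest p of the members (limma adjusted p = 0.0176). Of the CDC25 phosphatases, which remove the inhibitory phosphates from CDKs, Cdc25a had 7.10, 7.76, 7.80 and 7.84 against 7.08, 7.08, 7.02 and 6.91. Isotype replicate 1 was 0.02 above the anti-IL-10R arrays. The difference of −0.60 ± 0.17 did not pass (adjusted p = 0.0891) and was −0.77 ± 0.09 without that array (adjusted p = 0.00508; 0.00286 to 0.29 over the alternatives). Cdc25c, active at mitotic entry, differed by −0.76 ± 0.22 with separated groups (6.80 to 7.38 against 5.77 to 6.77, adjusted p = 0.0965). Cdc25b overlapped, with −0.01 ± 0.27 and values from −0.28 to 0.14 with 1 array left out.

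Wee1, the kinase that places these phosphates on CDK1, had 7.69, 7.99, 8.01 and 8.73 against 7.99, 7.64, 7.75 and 7.62. The groups overlapped, isotype replicate 4 stood above the rest, and the difference of −0.35 ± 0.21 (SE) was −0.15 without that array. Cdkn3, a phosphatase that acts on CDK2 and CDK1, had 9.48, 9.80, 9.62 and 9.95 against 9.42, 8.99, 9.15 and 9.18. The groups were narrowly separated, with a difference of −0.53 ± 0.14 (limma adjusted p = 0.0771). Skp2, the F-box protein that marks p27 for destruction, ranged from 6.95 to 8.38 with the isotype antibody and from 7.57 to 7.96 after blockade. Its difference of −0.05 ± 0.27 was −0.35 without isotype replicate 1, which was the lowest, and 0.13 without isotype replicate 2, which was the highest.

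None of the pocket proteins passed, and 2 of the 3 had separated groups, in opposite directions. Of all tested genes, 5.99% were separated with lower and 9.32% with higher values after blockade. Rbl2, which encodes p130, the pocket protein of quiescent cells, had 11.46, 11.57, 11.54 and 11.49 in the isotype arrays and 11.89, 11.82, 11.79 and 11.88 after blockade. Its 8 values formed 2 tight groups with a gap between them. The difference was 0.33 ± 0.09 (SE, 1.26-fold, limma adjusted p = 0.0891), which did not pass. It was 0.31 ± 0.09 without isotype replicate 1 (adjusted p = 0.0551), and with the trended and robust variance model or with array weights Rbl2 rose (adjusted p = 0.016 and 0.034), in fits that called 1.87% and 5.44% of all tested genes higher. Over all alternatives its adjusted p was 0.016 to 0.278. Rbl1, which encodes p107 and is an E2F target, had 9.81, 9.57, 9.72 and 9.81 against 9.52, 9.25, 9.41 and 9.48. These groups were separated in the other direction, by 0.05, and the difference of −0.31 ± 0.11 did not pass (adjusted p = 0.153). Rb1 itself overlapped, at 9.76 ± 0.15 (SD, n = 4) and 9.73 ± 0.08, a difference of −0.03 ± 0.11 (SE). That sign turned without isotype replicates 1 and 3 and anti-IL-10R replicate 4, and a second, dim row of Rb1 with a mean of 3.95 differed by 0.78 ± 0.47. The 95% intervals were −0.28 to 0.22 for Rb1 and 0.12 to 0.54 for Rbl2.

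**Figure D4:**
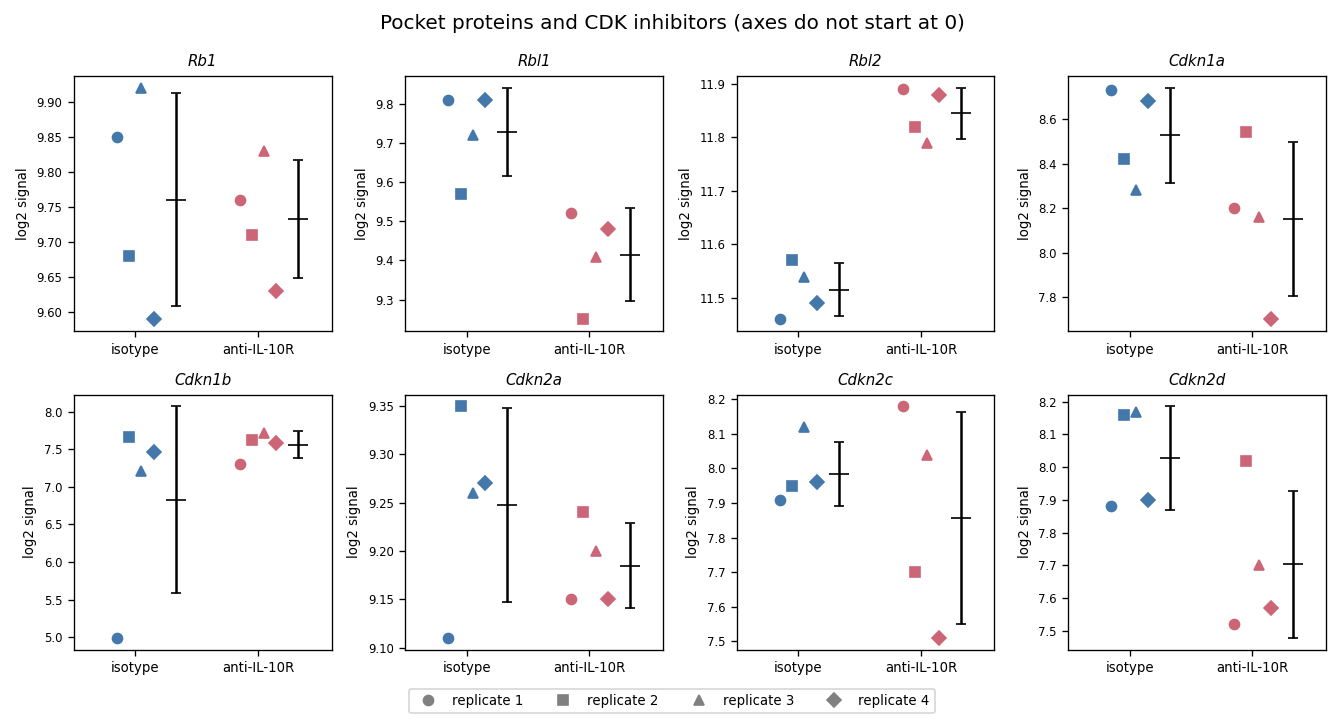
Log2 signal of the 3 pocket protein genes and 5 CDK inhibitor genes, 1 point per array, with the replicate number as the marker and black bars for the group mean ± SD (n = 4). Rbl2 is higher and Rbl1 lower in every anti-IL-10R array, the other 6 overlap, and isotype replicate 1 of Cdkn1b lies at 4.99, apart from the 7 other arrays.

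None of the 6 CDK inhibitors passed, and all overlapped between the groups. Cdkn1b, which encodes p27, the inhibitor of resting T cells, had 4.99, 7.66, 7.21 and 7.47 in the isotype arrays and 7.31, 7.63, 7.72 and 7.59 after blockade. Apart from isotype replicate 1 the 7 arrays lay within 0.51 of one another. The difference of 0.73 ± 0.50 (SE) with all arrays was 0.12 ± 0.14 without that array. Cdkn1a, which encodes the p53 target p21, had 8.73, 8.42, 8.28 and 8.68 against 8.20, 8.54, 8.16 and 7.70. The difference was −0.38 ± 0.18 (limma adjusted p = 0.291), and −0.23 without anti-IL-10R replicate 4, the lowest. Of the INK4 inhibitors, which block CDK4 and CDK6, Cdkn2d had 7.88, 8.16, 8.17 and 7.90 against 7.52, 8.02, 7.70 and 7.57, a difference of −0.32 ± 0.14 (adjusted p = 0.241). Cdkn2a, whose locus encodes both p16 and p19ARF and whose single row does not part them, differed by −0.06 ± 0.10 with a range of 9.11 to 9.35 over all 8 arrays. Its interval, −0.29 to 0.16, does not include the size of the fall of any called member. Cdkn2c differed by −0.13 ± 0.16, or −0.24 without anti-IL-10R replicate 1 and −0.012 without replicate 4. Cdkn2b differed by 0.03 ± 0.11, and its sign turned after quantile normalization (−0.053), after centring (−0.011) and without isotype replicate 1 (−0.033).

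Drivers and inhibitors were then contrasted array by array. The mean log2 signal of the 22 drivers was 8.28, 8.64, 8.67 and 8.68 in isotype replicates 1 to 4 and 8.30, 8.11, 8.22 and 8.04 in anti-IL-10R replicates 1 to 4. That of the 9 inhibitors and pocket proteins was 8.45, 8.78, 8.75 and 8.75 against 8.68, 8.72, 8.71 and 8.56. The driver mean of isotype replicate 1 lay among the anti-IL-10R arrays. Its mean of inhibitors and pocket proteins was the lowest of all arrays, largely through Cdkn1b, at 4.99 there against 7.21 to 7.72 in every other array. Other genes of that class went both ways in isotype replicate 1: Cdkn1a (8.73) was the highest of all arrays and Rbl2 (11.46) the lowest. The mean of the 21 tested drivers minus that of the 9 inhibitors and pocket proteins, whose 0 has no meaning on arrays, was −0.05, 0.03, 0.10 and 0.10 in the isotype arrays. It was −0.22, −0.47, −0.32 and −0.38 after blockade. The groups did not overlap, with isotype replicate 1 the lowest of its group. Both this separation and the small spread of the isotype arrays rest on the low Cdkn1b value, which raises the difference in isotype replicate 1. By the members' array values, leaving Cdkn1b out would put isotype replicate 1 among the anti-IL-10R arrays and widen the isotype spread. Isotype replicates 2 to 4 would stay above the anti-IL-10R arrays. The separation of the full groups therefore holds only with that value. The change in this difference was −0.39, from 0.04 ± 0.07 (SD, n = 4) to −0.35 ± 0.10. It is given without a p, since the genes were chosen with earlier results known. With a wider class of inhibitors, to which E2F4 to E2F8, WEE1 and CDKN3 were added, the median difference was −0.22 over 16 genes, 1 of which (E2f8) fell.

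**Figure D5:**
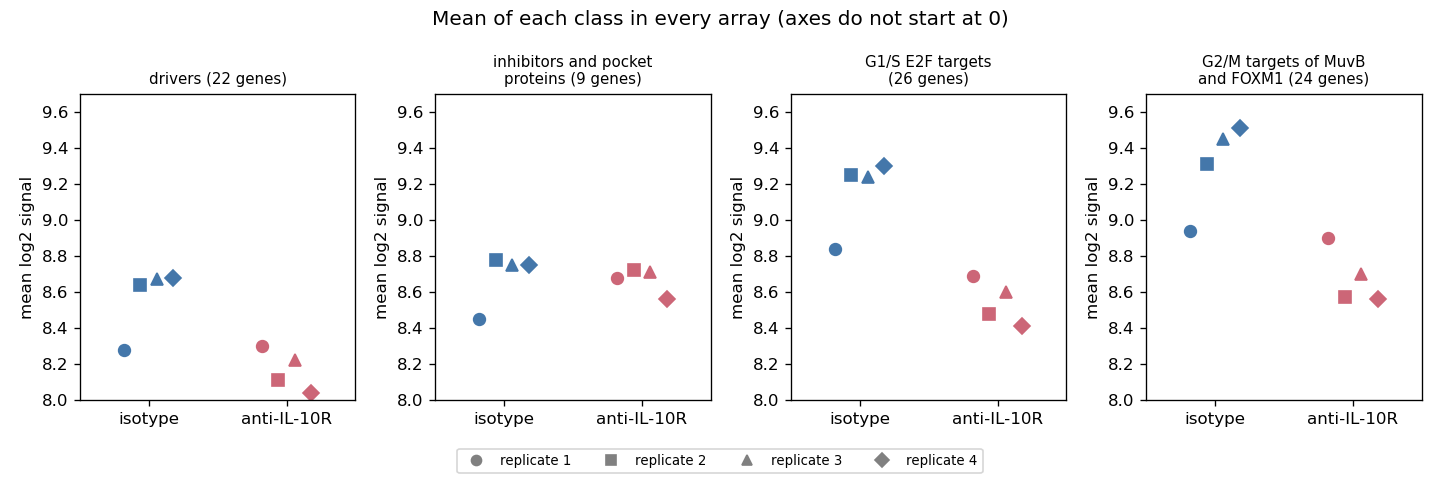
Mean log2 signal of the drivers, of the inhibitors and pocket proteins, and of 2 lists of target genes in every array, 1 point per array with the replicate number as the marker. The drivers and both target lists are lower in the anti-IL-10R arrays than in isotype replicates 2 to 4, and the inhibitors and pocket proteins lie between 8.45 and 8.78 in both groups.

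Known targets of these regulators were read from 2 lists. Of 26 measured targets of E2F at the G1/S transition, all were below 0 with a median of −0.61, and 6 fell (21 without isotype replicate 1). The 3 with the smallest p were Cdca7 (−1.29 ± 0.17 SE, limma adjusted p = 0.017), the chromatin assembly gene Chaf1a (−1.04 ± 0.16, adjusted p = 0.0213) and Rrm2, a subunit of ribonucleotide reductase (−0.86 ± 0.15, adjusted p = 0.0294). Of 24 targets of MuvB and FOXM1, all were below 0 with a median of −0.63, and 8 fell (22 without isotype replicate 1). Here the smallest p belonged to the mitotic kinase Plk1 (−0.84 ± 0.11, adjusted p = 0.017), the spindle gene Nusap1 (−0.65 ± 0.12) and Ube2c, the ubiquitin-conjugating enzyme of the anaphase-promoting complex (−0.66 ± 0.12). Without 1 of the other 7 arrays, 0 to 3 of the first list and 0 or 1 of the second fell (0 of both where isotype replicate 4 was left out, or anti-IL-10R replicate 2). These lists hold genes whose fall was known from earlier results of these data. Of all tested genes, 1.3% fell with all arrays and 5.9% without isotype replicate 1.

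The cyclins and CDKs outside the core cycle gave no call. Of 28 such genes, 21 were above 0 with a median of 0.21. Over all 12019 tested genes 6580 were above 0, with a median of 0.03. Of the 28 genes, 25 were tested and none passed. Ccng2, a cyclin tied to cell cycle arrest, was nearest (0.55 ± 0.12 SE, limma adjusted p = 0.0506), followed by Cdk17 (0.44 ± 0.12) and Ccni (0.33 ± 0.11). Without isotype replicate 1, 2 of the list rose, where 3.35% of all tested genes did. Of 20 genes of the APC/C and SCF ubiquitin ligases and of proteins that work with them, 12 were below 0 with a median of −0.08. Without isotype replicate 1, 5 of these fell, where 5.9% of all tested genes did. With all arrays Ube2s alone fell (−0.57 ± 0.11, limma adjusted p = 0.0334), an enzyme that extends ubiquitin chains for the APC/C. Anapc15 and Anapc11 differed by −0.60 ± 0.17 and −0.37 ± 0.11. Of 10 other partners of MuvB and RB, none passed, with a median of 0.02 (1 fell without isotype replicate 1, as did 5.9% of all tested genes). The smallest p there belonged to Lin52 (0.66 ± 0.44), Rbbp7 (−0.13 ± 0.11) and Myb (−0.33 ± 0.34).

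Of 10 antiproliferative and growth arrest genes, 1 fell and 1 rose, where 1.3% of all tested genes fell and 1.23% rose. Hbp1, a repressor of cell cycle genes that binds RB, rose by 0.60 ± 0.12 (SE, limma adjusted p = 0.0418), and Pa2g4, a growth regulator that also acts in ribosome assembly, fell by 0.59 ± 0.11 (adjusted p = 0.0371). Btg1 differed by 0.61 ± 0.18 (adjusted p = 0.101). Of 11 genes of the DNA damage checkpoint, Mdm4, an inhibitor of p53, rose by 0.71 ± 0.14 (adjusted p = 0.0408). Chek1, the kinase that restrains CDC25A, differed by −0.50 ± 0.13 (adjusted p = 0.0775), and Atm by 0.47 ± 0.18. Without isotype replicate 1, 2 of these 11 fell and 1 rose, where 5.9% and 3.35% of all tested genes did. The calls of Ube2s, Hbp1, Pa2g4 and Mdm4 ended when any 1 of the other 7 arrays was left out.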

How the data were processed

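RNA of 8 sorted samples was hybridised to Mouse Gene 2.0 ST arrays (per the labels' protocols). The authors deposited log2 values, 1 per transcript cluster and array (1.57 to 13.89), for which the submitters' processing notes name Affymetrix Power Tools; the log2 scale was read from this range, and the tool's version, its summary method and its normalization were not given in the sources used. Array medians were 5.19 to 5.31. Values of different genes come from different probes, so a level is not compared between genes, and the number of arrays limits precision. No 2 arrays held identical values.

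Of 41345 rows, 23521 had 1 gene symbol in the platform annotation (1814 had several, 16010 no entry), checked by gene identifier against RefSeq GRCm38.p6. Differences are anti-IL-10R minus isotype, from limma 3.58.1 in R 4.3.3 (lmFit, eBayes without trend, total degrees of freedom 9.59), two-sided and Benjamini-Hochberg adjusted over the 12019 genes past the filter; Ccnd1 and other dim genes are from the fit over all 22180. Intervals are at 95%. The fit was tested on simulated data. Members, roles, lists, the rule for named genes and the alternatives were set with earlier results of these data known; the promoter motifs were chosen later. By the rule, array values are given for members past the threshold and for the smallest p of each other role, and the 3 smallest p of each list are named; Ccnd2, Ccnb2, Cdk4, Cdk6, Cdkn1b and Rbl1 were added after their values were seen. Alternatives were other filters, quantile normalization, centring, the mean of a gene's rows, a trended and robust variance, array weights (with statmod 1.5.0), a block for the replicate number, a B cell covariate, each array left out, other thresholds and a wider inhibitor class.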

Additional observations from a re-analysis of the deposited data

Results flagged for a closer look

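In 7 of 84 groups of 4 arrays examined (42 members in 2 treatment groups), 1 array lay far from the other 3 by Dixon's criterion, where chance flags about 1 in 20. In 6 of the 7 it was isotype replicate 1, always low. It had 9.60 for Ccna2 against 9.87 to 9.91 in its group's other arrays, and 9.67 for Ccnb2 against 10.28 to 10.37. For Cdk1 it had 10.23 against 10.67 to 10.73, and for E2f1 6.63 against 6.91 to 6.96. For Cdc25a it had 7.10 against 7.76 to 7.84, and for Cdkn1b 4.99 against 7.21 to 7.66. The other was isotype replicate 4 for E2f2, high at 7.61 against 7.25 to 7.29.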

How the results depend on the processing

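The number of members that fell (8) was the result that depended most on the fit. The share of all tested genes called lower (1.3%) moved with it. The count was 4 with no filter on dim genes (0.352% of all genes), 4 after centring (0.624%), 17 after quantile normalization (3.55%), 20 with array weights (6.78%), 0 with the B cell covariate (0.00832%), 0 at a threshold of 0.01 (0.00832%) and 18 at 0.10 (3.49%). It ranged from 0 to 20 with 1 array left out (0.00832% to 5.9%). The number that rose (0 of 41) was 1 with the trended and robust variance (Rbl2), 2 with array weights (Rbl2 and Ccnd2) and 1 at a threshold of 0.10, in fits that called 1.87%, 5.44% and 3.96% of all tested genes higher, so these counts are near the background share. With the replicate number as a block 0 members and 4 of all genes passed; same-numbered arrays deviated together in no steady way (correlations −0.16 to 0.117), and 2 of 8 arrays correlated best with their own number, so the numbers were not taken as pairs. The median of the drivers stayed between −0.64 and −0.49 in every setting run, and that of the inhibitors and pocket proteins between −0.12 and −0.012, except −0.22 with the wider class. Leaving out the filter, the trended and robust variance and the replicate block do not change the differences, so these settings could not move either median. Signs turned only for members that did not pass. With the B cell covariate Cdc25b was 0.071, Cdkn2b −0.016 and Rb1 0.014. Cdkn2b was −0.053, −0.011 and −0.023 after quantile normalization, centring and array weights, and E2f4 −0.059, −0.037 and −0.12. Rb1 was 0.38 over the mean of its rows and 0.037 with array weights, and E2f6 −0.018 with array weights. With 1 array left out Ccnd3 ranged from −0.14 to 0.0045, Cdc25b from −0.28 to 0.14, Skp2 from −0.35 to 0.13, Cdkn2b from −0.033 to 0.079, Rb1 from −0.085 to 0.024, E2f4 from −0.16 to 0.09 and E2f6 from −0.036 to 0.18. The cause of these changes was not tested. Scanner files were not used here, so signal over background could not be set per gene.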
